A study of Mus musculus with 2 samples.

Results

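The collagen genes were taken from the gene table of the matrix by symbol alone, as every symbol that is exactly Col, digits, the letter a and digits, with at least 20 unique molecular identifiers (UMIs, each standing for 1 captured RNA molecule) over both libraries. Of 55357 genes 44 had such a symbol and 39 reached the minimum. Col10a1 with 20 UMIs and Col11a1 with 24 were just inside it, and Col26a1 with 16, Col22a1 with 14, Col2a1 with 10 and Col9a2 with 4 just outside, while Col9a1 had 0. Of the 39 members 26 had at least 200 UMIs and are described in full. The study used female BALB/c mice with orthotopic K7M2 osteosarcoma, a mouse bone tumour line that spreads to the lung, which the series text calls xenografts. The treated group received 1V209-Cho-Lip, and 1V209 is known as an agonist of the RNA sensor TLR7; the control group received PBS. Lungs of 3 mice were pooled for each group and made into 1 10x Genomics single-cell library, so nothing in the data separates treatment from library, and no p-value was computed. Doses, times and ages are not given in the sources used here. Intervals are 95% intervals that cover counting error alone, not the spread between mice, and values given in pairs are those of the 1V209-Cho-Lip (treated) library first and of the PBS library second.

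Collagens are secreted proteins in which chains with a glycine-rich repeat wind into a rope-like helix. Fibrillar collagens (I, III, V, XI, XXIV, XXVII) build tensile fibres, the collagen IV chains form the sheet of basement membranes, collagen VI makes beaded filaments, fibril-associated collagens such as XII, XIV and XVI sit on fibre surfaces, and a few members, such as XIII and XXIII, span the cell membrane. In lung, fibroblasts are known as the main source of fibrillar chains, the shared basement membrane of alveolar epithelium and capillaries is rich in collagen IV, and bone tumour cells of the osteoblast lineage are known to make collagen I.

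The 3 pairs of collagen IV genes lie head to head, each pair with its start sites side by side on opposite strands. The annotated starts of Col4a1 and Col4a2 overlapped by 22 bases on chromosome 8, those of Col4a4 and Col4a3 were 71 bases apart on chromosome 1, and those of Col4a6 and Col4a5 were 1308 bases apart on chromosome X (GENCODE vM21, mm10). The 71 bases between Col4a4 and Col4a3 (chr1:82586850-82586920, read on the minus strand) are printed because both genes were highest in the same class of cells, alveolar type 1. The 120 bases before the starts of Col3a1 (chr1:45311418-45311537, plus strand), Col13a1 (chr10:61979109-61979228, minus), Col8a1 (chr16:57754738-57754857, minus) and Col5a3 (chr9:20815068-20815187, minus) are printed because each of these 4 genes had a different distribution over cell classes, described below. All come from RefSeq on GRCm38.p6, 5′ to 3′, and capitals mark matches to the TATA box letters TATAAA, the CCAAT box letters CCAAT or the GC box letters GGGCGG, searched on both strands.
between Col4a4 and Col4a3: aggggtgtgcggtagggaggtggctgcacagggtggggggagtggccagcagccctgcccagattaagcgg
Col3a1: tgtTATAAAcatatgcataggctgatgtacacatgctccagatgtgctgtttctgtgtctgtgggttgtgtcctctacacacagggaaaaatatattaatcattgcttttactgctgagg
Col13a1: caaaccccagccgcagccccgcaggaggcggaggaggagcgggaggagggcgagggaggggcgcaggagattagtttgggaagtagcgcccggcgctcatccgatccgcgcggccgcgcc
Col8a1: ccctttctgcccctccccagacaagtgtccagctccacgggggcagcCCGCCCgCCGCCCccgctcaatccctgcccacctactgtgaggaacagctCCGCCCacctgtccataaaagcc
Col5a3: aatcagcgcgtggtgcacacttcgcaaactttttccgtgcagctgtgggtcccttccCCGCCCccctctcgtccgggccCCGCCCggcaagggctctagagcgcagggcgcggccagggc
Col3a1 had 1 TATAAA as printed, starting at position 4 and ending 111 bases before the end of the printed run. Col8a1 had 3 matches and Col5a3 2 matches to GGGCGG, all on the other strand, so that they read CCGCCC here. In the 71 bases next to Col4a3, and in the bases before Col13a1, none of the 3 sets of letters occurred. Over the 250 bases before each start, which RefSeq gave for 33 of the 39 members, TATAAA occurred for 5 members (15.2%) against 12.4% of 32851 windows of all genes. CCAAT occurred for 12 members (36.4%) against 33.8% of windows, and GGGCGG for 20 (60.6%) against 32.7%; a member counts if any of its windows holds the letters. A match describes letters in this window and is no sign of binding.

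The libraries held 13740 treated and 14622 PBS barcodes with 54843992 and 58156102 UMIs. After filters and removal of called doublets, 12265 and 12654 cells with 46108049 and 46481928 UMIs remained, at a median of 2506 and 2198 UMIs per cell, and levels are given in CPM, the UMIs of a gene scaled to the same total of UMIs for every sum of cells. The libraries shared 268 barcodes. Cells were assigned to classes by sets of 5 to 12 marker genes that hold no collagen, with at least 3 markers detected, and each class name stands for cells that passed that gate. The main structural classes had every marker detected in both libraries. Cells with at least 100 UMIs of Def8, a gene linked to the placing of lysosomes, were kept as a class of their own by that rule, called Def8-high: 38 treated and 106 PBS cells. Their total was high, at a median of 69996 and 61131 UMIs. In them 11 of 13 osteoblast-lineage markers had at least 1 UMI in both libraries, with Runx2 at 32.1 and 29.2 CPM, but Sp7 had 1 and 2, Dmp1 3 and 2, Phospho1 7 and 2, Postn 7 and 1 and Alpl 5 and 14 UMIs, and the late bone markers Bglap and Ibsp 0. The sum of the 13 markers, 2117 and 2668 CPM there, was lower than the 7229.6 and 8061 CPM in pericytes and the 5402 and 6217 in alveolar type 1 cells. Postn, which is also a marker of the pericyte gate, made up 3354 and 3460 CPM of the pericyte sum, so that part was built in. The class sizes used below were 538 treated and 301 PBS alveolar fibroblasts, 72 treated and 82 PBS adventitial fibroblasts, 58 treated and 54 PBS pericytes, 59 treated and 60 PBS mesothelial cells, 1626 treated and 1767 PBS general capillary and 609 treated and 719 PBS Car4 capillary endothelial cells, 235 treated and 97 PBS alveolar type 1 cells and 218 treated and 264 PBS alveolar type 2 cells. RNA of other cells was present in every class and differed between the libraries: the summed level of 7 neutrophil markers was 1439 and 203 CPM in general capillary cells, 1720.0 and 352 CPM in alveolar fibroblasts, 473 and 47.0 CPM in mesothelial cells and 740.1 and 54.6 CPM in Def8-high cells. Its part in the results was not tested beyond leaving out the cells that carried it.

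Across classes the collagens divided into a few territories, seen in the heat map of levels. Of the 26 members with at least 200 UMIs, 22 were highest in the same class in both libraries: 6 in adventitial fibroblasts, 4 in pericytes, 4 in mesothelial cells, 3 in alveolar fibroblasts, 3 in alveolar type 1 cells and 2 in Def8-high cells. For 16 members the intervals of the highest and the next class were apart in both libraries. In 24 the highest class stood above the immune cells of both libraries, the exceptions being Col20a1 and Col11a2. A capillary class led for none of them. Immune cells, which are known to lack most collagens, were pooled as a rough level of free RNA. At a median of 2633 and 2362 UMIs, 2.38% and 3.13% of immune cells had a Col1a2 UMI. The pooled level differed between libraries by gene, at 2.51 times PBS for Col14a1 and 0.382 times for Col8a1. It also hides differences between immune classes, such as those of Col14a1 and Col6a4 given at the end, and is no clean background for such members.

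Among fibrillar chains, the collagen I genes Col1a2 (ENSMUSG00000029661, chromosome 6, 4504814 to 4541544) and Col1a1 (ENSMUSG00000001506, chromosome 11, 94936224 to 94953042) had their highest level in adventitial fibroblasts and the next in Def8-high cells in both libraries. Col1a2 was at 1653 and 2328 CPM in adventitial fibroblasts, 1192 and 1254 CPM in Def8-high cells, 511 and 695 CPM in alveolar fibroblasts and 15.4 and 11.9 CPM in immune cells. Col1a1 followed the same order at 1329 and 1752 CPM, 928 and 1185 CPM and 316 and 509 CPM, with 9.51 and 10.6 CPM in immune cells. The 2 genes encode the chains of 1 molecule. Col3a1, the collagen of fine reticular fibres, was at 1784 and 2801 CPM in adventitial fibroblasts, 982 and 1247 CPM in mesothelial cells and 501 and 487 CPM in Def8-high cells. Col5a1, a chain that is known to start fibril assembly, was highest in adventitial fibroblasts at 189.8 and 196 CPM, and its level in Def8-high cells was 55.5 and 88.5 CPM. Its partner Col5a2 had no fixed leader: mesothelial cells led in the treated library at 370.1 CPM (319 to 427) and adventitial fibroblasts in the PBS library at 351 CPM (288 to 423). The third chain of this group, Col5a3, parted from both, with 106 and 105 CPM in Def8-high cells against 5.60 and 6.64 CPM in alveolar and 0 and 19.3 CPM in adventitial fibroblasts. Col27a1, known from cartilage, was highest in pericytes at 61.8 and 45.9 CPM, from under 20 UMIs over both libraries, with intervals that overlapped those of the next class. Among the 10 classes Col11a2 was at most 1.95 and 2.61 CPM, in mesothelial cells, beside 1.88 and 2.26 CPM in immune cells. Immune cells held 54 of its 70 treated and 55 of its 88 PBS UMIs. In mesothelial cells 3 UMIs would give 5.84 and 7.83 CPM.

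The collagen IV chains, which are known to join in fixed sets, divided into groups. Col4a1 (ENSMUSG00000031502, chromosome 8, 11198423 to 11312826) and Col4a2 (ENSMUSG00000031503, chromosome 8, 11312805 to 11449287) make the network found in nearly every basement membrane. Col4a1 was at 1527 and 1669 CPM in pericytes, 846 and 803 CPM in alveolar type 1 cells, 504 and 758 CPM in Car4 capillary cells and 463 and 865 CPM in general capillary cells. Col4a2 was at 1359 and 1187 CPM, 918 and 713 CPM, 359 and 405 CPM and 325 and 504 CPM in the same 4 classes. The other network, in which mutations are known to cause Alport syndrome, is made of Col4a3 (ENSMUSG00000079465, chromosome 1, 82586921 to 82722059), Col4a4 (ENSMUSG00000067158, chromosome 1, 82448423 to 82586849) and Col4a5, and all of these were highest in alveolar type 1 cells. Col4a3 was at 1251 and 1677 CPM there and at 111 and 162 CPM in mesothelial cells, the next class. Col4a4 was at 1099 and 1357 CPM and 333 and 459 CPM in the same classes, and Col4a5 at 273 and 407 CPM in alveolar type 1 cells. Low Col4a6 was highest in mesothelial cells at 17.5 and 33.9 CPM, where its intervals overlapped those of the next class. Over 10 classes the levels of head-to-head partners followed each other, with a Pearson correlation of log2(CPM + 1) of 0.98 and 0.99 for Col4a1 with Col4a2 and 0.97 and 0.91 for Col4a3 with Col4a4. The third such pair, Col4a5 with Col4a6, gave 0.91 and 0.79. Likeness of this size was not particular to head-to-head genes. Col1a1 with Col1a2, on different chromosomes, gave 0.98 and 0.99, and Col6a1 with Col6a2, on the same strand, 0.96 and 0.97. Between the networks, Col4a1 with Col4a3 gave 0.27 and 0.20. These describe 10 points that share library and depth.

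Both multiplexins of basement membranes, named for their interrupted helices, differed in their highest class among the 10. Col18a1, whose end fragment is endostatin, was at 347 and 326 CPM in Def8-high cells and at 41.4 and 53.1 CPM in the next class, alveolar fibroblasts. Col15a1 was at 29.5 and 106 CPM in adventitial fibroblasts and 6.52 and 21.5 CPM in general capillary cells. Immune cells held the most of its UMIs, 73 of 123 treated and 98 of 238 PBS. In the few Vwf-high venous-side endothelial cells it was at 63.9 and 0 CPM, from 6 and 0 UMIs. Col8a1, a short-chain collagen known from vessel walls, was at 415 and 367 CPM in pericytes and 232 and 233 CPM in Def8-high cells.

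Of the beaded-filament chains, Col6a2 was highest in mesothelial cells at 748 and 780.2 CPM, and Col6a1 was at 713 and 509 CPM there and 397 and 569 CPM in alveolar fibroblasts, so that the leading class changed between libraries. Col6a3, whose product carries the endotrophin fragment, was highest in alveolar fibroblasts at 202 and 415 CPM. The transmembrane gene Col13a1 (ENSMUSG00000058806, chromosome 10, 61838236 to 61979108) was nearly restricted among the 10 classes, at 386 and 303 CPM in alveolar fibroblasts and 696 of 833 treated and 279 of 313 PBS UMIs in the stromal classes. The other transmembrane gene Col23a1 had a spread of similar levels, at 103 and 46.0 CPM in alveolar type 2 cells, 77.9 and 107 CPM in alveolar fibroblasts and 131 and 126 CPM in the few lymphatic endothelial cells. Of fibril-associated collagens, Col14a1 was at 1038 and 1658 CPM in adventitial fibroblasts, Col16a1 at 97.4 and 109.6 CPM in mesothelial cells, and Col12a1, known from loaded and healing tissue, at 56.8 and 76.7 CPM in alveolar type 1 cells and 70.1 and 15.7 CPM in mesothelial cells. Col20a1 was low, at 8.96 and 6.64 CPM in alveolar fibroblasts.

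The 13 members under 200 UMIs had between 6 UMIs (Col10a1) and 67 UMIs (Col6a4) in kept treated cells, and Col11a1 and Col10a1 no longer had 20 UMIs over the kept cells of both libraries. Col6a4 was highest outside the 10 classes, in B cells, at 13.0 and 12.3 CPM. Col7a1, the anchoring-fibril collagen of epithelia, was at 10.7 and 6.90 CPM in Def8-high cells, from 28 and 46 UMIs, 50.9% and 62.2% of its UMIs. Its 26.5 and 23.0 CPM in pericytes are the level that 3 UMIs give in that class. Col6a6 was at 13.1 and 38.6 CPM in adventitial fibroblasts. The rest of them were Col24a1, Col9a3, Col17a1, Col8a2, Col6a5, Col25a1, Col28a1 and Col19a1, each at or under 1.26 CPM in the treated and 0.861 CPM in the PBS library.

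Def8-high cells were 0.310% (0.219 to 0.425%) and 0.838% (0.686 to 1.01%) of kept cells, 0.370 times the PBS share in the treated library. Of the UMIs of all genes they held 2613241 of 46108049 treated and 6667019 of 46481928 PBS, a smaller share in the treated library. Beside those totals, larger shares of some collagens lay in these cells. They held 55.8% (54.4 to 57.1%) of treated and 74.3% (73.5 to 75.1%) of PBS UMIs of Col1a2, 60.7% (59.2 to 62.2%) of treated and 76.7% (75.9 to 77.5%) of PBS UMIs of Col1a1 and 33.2% (31.7 to 34.7%) of treated and 49.8% (48.6 to 51.0%) of PBS UMIs of Col3a1. For Col18a1 they held 78.6% (76.1 to 80.9%) of treated and 81.0% (79.5 to 82.5%) of PBS UMIs. For Col8a1 the share was 69.3% and 69.8%, and for Col5a3 80.0% and 77.7%. These 3 genes kept nearly the same share in both libraries, whereas the share of Col5a2 was 30.2% and 62.6%, that of Col16a1 39.9% and 70.4%, and that of Col6a1 20.3% and 45.2%. At the other end Col13a1 had 0 of 833 and 0 of 313 UMIs there, and Col4a1 0.175% and 0.697%. The median share over the 26 members was 11.0% and 29.2%. Of each gene's UMIs in the library, stromal classes held 29.4% and 13.7% of Col1a2 and 47.4% and 37.5% of Col3a1, and epithelial classes 81.8% and 73.7% of Col4a3, as the stacked bars show.

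**Figure D1:**
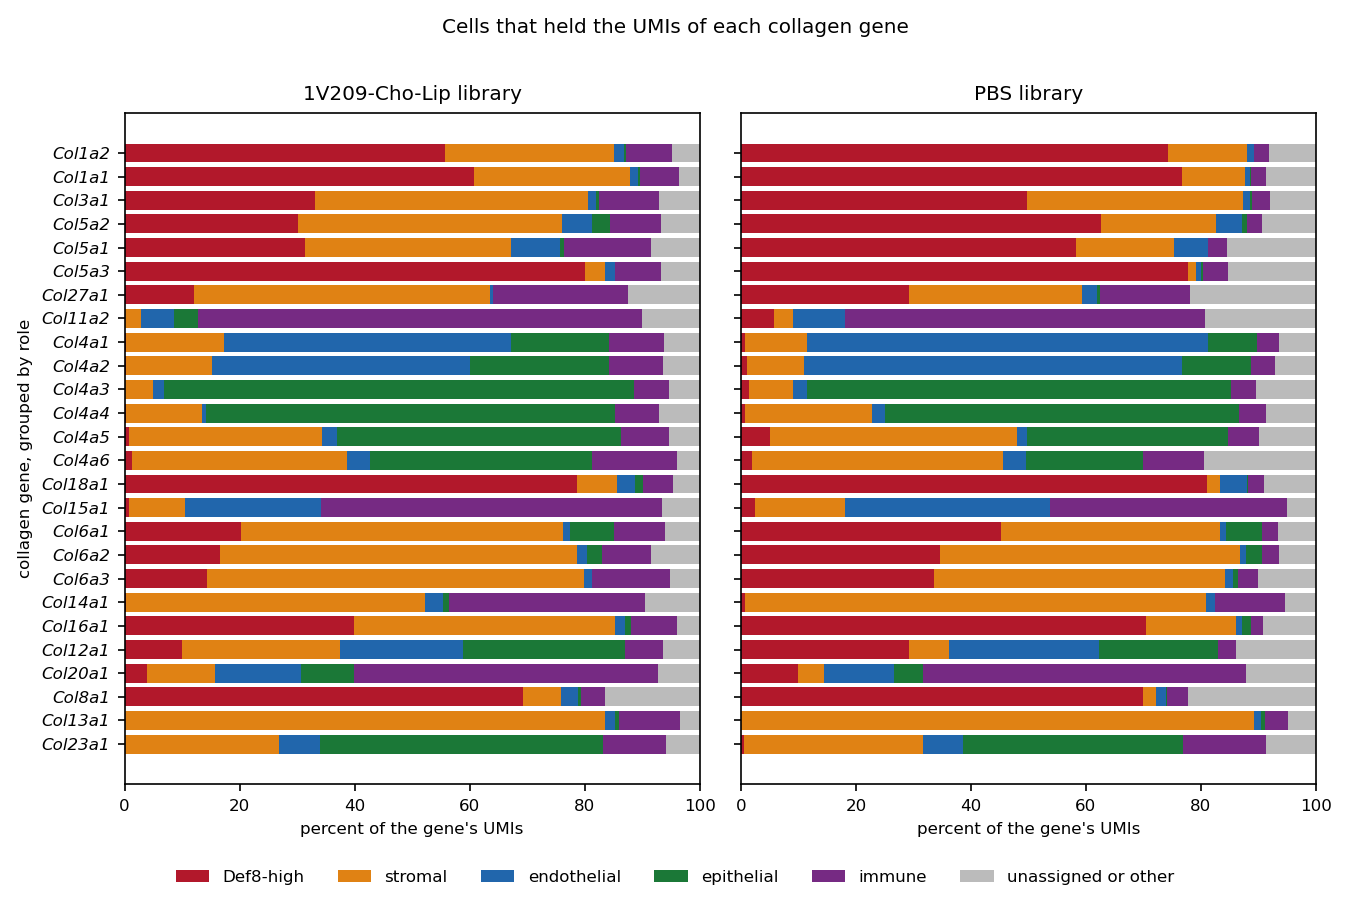
Percent of each member's UMIs (horizontal axis) that lay in Def8-high, stromal, endothelial, epithelial, immune and unassigned or other cells, for the 26 members with at least 200 UMIs (rows), with 1 panel for each library. The Def8-high segment of Col18a1 spans 78.6% and 81.0% and that of Col13a1 is absent; the Def8-high segment of Col1a2 is 55.8% in the treated and 74.3% in the PBS panel.

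Over all kept cells of a library, most fibrillar collagens were lower in the treated library and the alveolar type 1 and Col13a1 signals were higher. Of 37 members with 20 UMIs in kept cells, 13 were at least 1.5-fold lower and 5 at least 1.5-fold higher, where 20.2% and 14.0% of all 20415 genes with 20 UMIs were lower and higher by that fold. Differences are counted by this fold alone, and for 11 of the 13 and 5 of the 5 the interval of the ratio also excludes 1. The members lower were 35.1% and those higher 13.5% of the 37, and their median log2 ratio was -0.31 beside -0.20 for all genes. Col1a2 was at 121 and 242 CPM, 0.501 (0.485 to 0.517) times PBS, and Col1a1 at 86.7 and 222 CPM, 0.391 (0.377 to 0.406) times PBS. Col3a1 was at 85.5 and 140.3 CPM (0.609 times PBS). The lowest ratios of the 26 were 0.386 (0.340 to 0.437) for Col5a3, 0.395 (0.365 to 0.427) for Col8a1 and 0.434 (0.405 to 0.465) for Col18a1, beside Col1a1 above. Col5a1 (0.459), Col5a2 (0.609), Col16a1 (0.599), Col6a3 (0.666), Col15a1 (0.521), Col28a1 (0.546) and Col19a1 (0.531) were also lower. The members higher were Col13a1 at 18.1 and 6.73 CPM, 2.68 (2.35 to 3.07) times PBS, Col4a4 at 29.5 and 17.7 CPM (1.66 times), Col4a3 at 28.4 and 17.6 CPM (1.62 times), Col23a1 (1.58) and the low Col24a1 (1.54). Col4a1 was 0.722 times PBS and Col4a2 0.934 times. Col6a2, Col6a1 and Col12a1 were at 0.985, 0.922 and 0.994 times PBS.

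Without Def8-high cells 8 members were lower and 4 higher, beside 18.0% and 13.1% of all genes, with a median of -0.22 beside -0.20. Col1a2 was then 0.783 (0.742 to 0.826) times PBS and Col1a1 0.599 (0.562 to 0.639) times, while Col5a2 was at 1.03 (0.940 to 1.14) and Col16a1 at 1.10 (0.911 to 1.34), no longer lower. Col3a1 without these cells was at 0.736 (0.699 to 0.775). Col5a1 was at 0.685 (0.591 to 0.795). These 5 fibrillar chains moved toward 1, and the other 5 moved away: Col5a3 to 0.314 (0.235 to 0.415), Col27a1 to 1.33 (1.07 to 1.67), and the low Col11a2, Col24a1 and Col11a1 to 0.772 (0.554 to 1.07), 2.01 (1.24 to 3.33) and 0.458 (0.123 to 1.47). Col18a1 at 0.443 (0.379 to 0.517) and Col8a1 at 0.365 (0.316 to 0.421) stayed about as low over all remaining cells as in the whole library. The remaining cells still included those with at least 10 Def8 UMIs but too few for the Def8-high class. Such cells were kept out of every class, and their part in the ratios of this paragraph was not tested. These ratios therefore do not describe lung cells free of Def8 signal.

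Whole-library levels follow both how many cells of a class were captured and how much each carried, and for several members these went in different directions. Alveolar type 1 cells were 1.92% (1.68 to 2.17%) and 0.767% (0.622 to 0.934%) of kept cells, 2.50 times the PBS share, and within them Col4a3 was 0.746 (0.669 to 0.832) and Col4a4 0.810 (0.719 to 0.914) times PBS, below 1, although both genes were above 1 over the library. Alveolar fibroblasts were 4.39% (4.03 to 4.76%) and 2.38% (2.12 to 2.66%) of cells, 1.84 times the PBS share, and within them Col13a1 was 1.28 (1.11 to 1.47) times PBS. Within Def8-high cells Col18a1 was at 1.07 (0.985 to 1.15), Col8a1 at 0.992 (0.902 to 1.09) and Col5a3 at 1.00 (0.871 to 1.16) times PBS, against 0.434, 0.395 and 0.386 over the library. For these 3 genes the interval of the ratio within the class holds 1 and that over the library does not. Over cells thinned to 1000 UMIs each, which keeps few collagen UMIs of this class, their log2 ratios within it were -0.76 for Col18a1, 0.48 for Col8a1 and -1.22 for Col5a3, and those of Col4a3 and Col4a4 in alveolar type 1 cells -0.11 and -0.03. With 1 library of pooled dissociated lungs in each group, the number of cells in the tissue and the number recovered cannot be told apart.

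**Figure D2:**
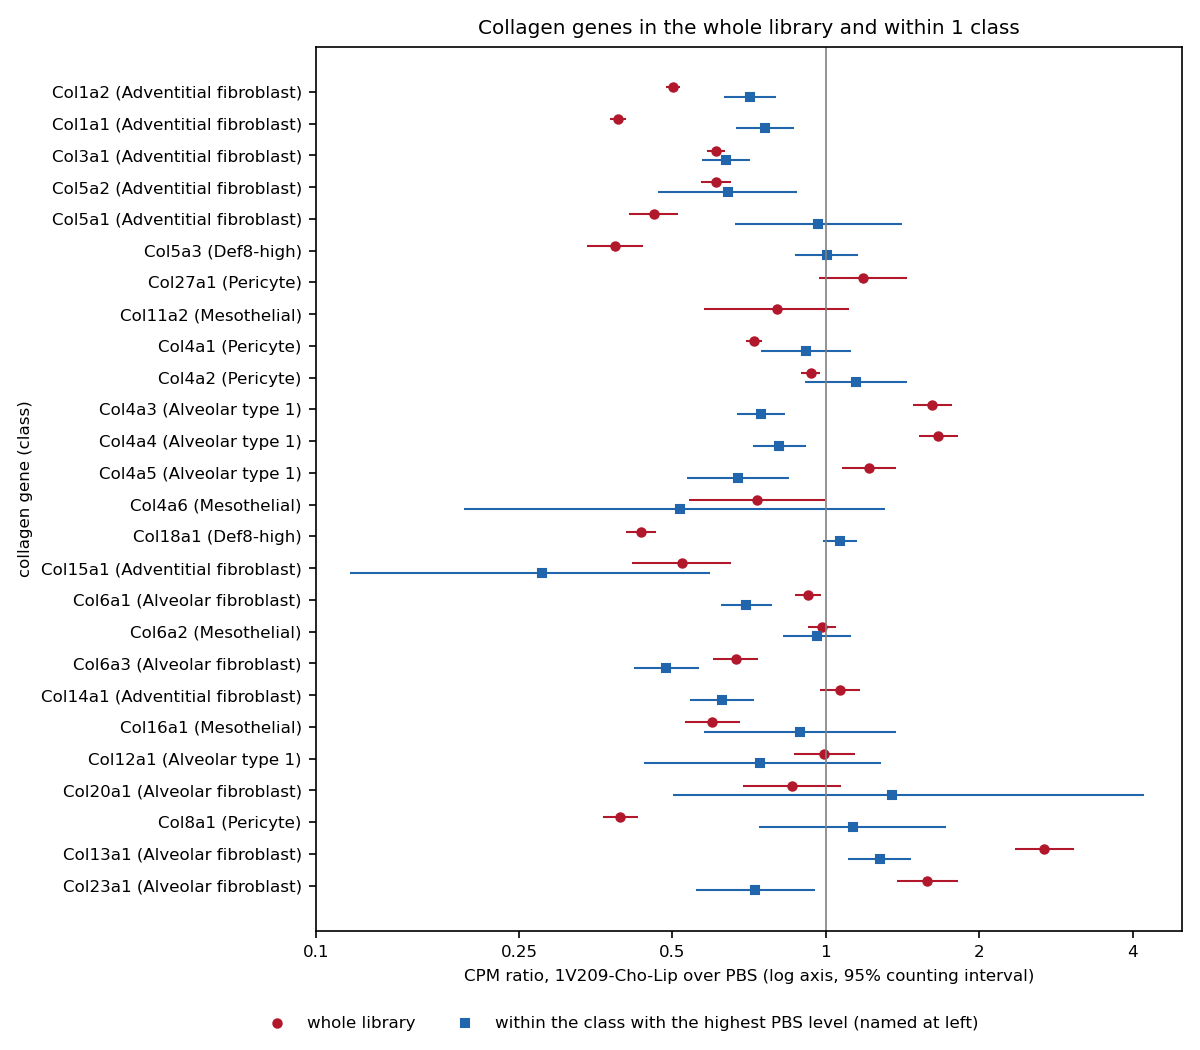
Ratio of treated to PBS level (log axis) of each member over the whole library and within the class where its PBS level was highest (shown from 20 UMIs upward), with 95% counting intervals. Col4a3 and Col4a4 lie above 1 for the library and below 1 within alveolar type 1 cells, and Col18a1 and Col5a3 lie at 0.434 and 0.386 for the library and at 1.07 and 1.00 within Def8-high cells.

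Within classes the collagens were more often lower than higher in the treated library. Club or secretory airway cells, 72 treated and 92 PBS, were 1 of the 10 classes of the levels but were left out of these comparisons. Over the other 9 classes, each of 50 or more cells per library except Def8-high, 122 pairs of a member and a class had 20 UMIs. Of these 35 were at least 1.5-fold lower and 12 at least 1.5-fold higher. By class, 10% to 50% of the members tested were lower, beside 9.07% to 20.5% of all genes. Members higher were 0% to 29.4% of those tested in a class, beside 11.6% to 25.9% of all genes. In alveolar fibroblasts 8 of 21 members were lower and 1 higher, beside 13.1% and 15.2% of all genes tested there, with a median log2 ratio of -0.44 beside -0.03. Col3a1 was at 448 and 1026 CPM, 0.436 (0.396 to 0.480) times PBS, and the next highest, Col1a2, at 0.736 (0.664 to 0.816). Col6a3 was at 0.486 (0.419 to 0.563), Col4a1 at 0.598 (0.519 to 0.690) and Col1a1 at 0.622 (0.549 to 0.705) times PBS. Col6a1 (0.698) and Col6a2 (0.738) were lower by less than 1.5-fold, and Col13a1 was above 1. The other members at least 1.5-fold lower were Col14a1 (0.592), Col5a1 (0.585), Col4a5 (0.514) and Col4a6 (0.219). Col12a1 was the member higher, with 63 and 7 UMIs at 4.56 (2.09 to 11.8) times PBS, 9 of the treated UMIs lying in 1 cell. In cells thinned to 1000 UMIs each, 23.9% and 44.7% had a Col3a1 UMI, against 40.1% and 66.4% at full depth and, thinned, 0.647% and 0.725% of immune cells. A median alveolar fibroblast had 1 treated and 0 PBS of 7 neutrophil markers; without the 426 treated and 66 PBS cells with an S100a8 or S100a9 UMI the log2 ratio of Col3a1 was -0.88, against -1.20 with them. Col6a3 was then at -0.45, from -1.04, Col1a1 at -0.38, from -0.69, and Col5a1 at -0.15, from -0.77, none any longer 1.5-fold lower, while Col4a1 was at -0.78, from -0.74.

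In adventitial fibroblasts 7 of 14 members were lower and 1 higher, beside 20.5% and 13.9% of all genes, with a median of -0.60 beside -0.09. Col3a1 was at 0.637 (0.571 to 0.710), Col14a1 at 0.626 (0.542 to 0.721) and Col6a2 at 0.479 (0.372 to 0.612) times PBS. Col1a2 (0.710), Col1a1 (0.759) and Col6a1 (0.713) were lower by less than 1.5-fold. Among the less abundant chains Col15a1 had 9 and 33 UMIs (ratio 0.277, 0.117 to 0.592), Col6a3 27 and 68 UMIs (0.404) and Col4a5 15 and 36 UMIs (0.424). Col5a2 was at 0.643 (0.469 to 0.878). The fibril-associated Col16a1 was the member higher, with 25 and 10 UMIs, 2.54 (1.18 to 5.93) times PBS. The neutrophil marker sum in these cells was 1011 and 155 CPM, and without the 56 treated and 22 PBS cells with an S100a8 or S100a9 UMI the log2 ratio of Col3a1 was -0.71, from -0.65.

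In Def8-high cells 4 of 19 members were lower and 1 higher, beside 11.1% and 13.0% of all genes, with a median of -0.22 beside -0.02. Among members at 50 CPM or more, Col5a1 was at least 1.5-fold lower, at 0.627 (0.519 to 0.753) times PBS, and by less than that Col1a1 was at 0.783 (0.748 to 0.819) and Col5a2 at 0.744 (0.665 to 0.832). Col1a2 was at 0.95 (0.912 to 0.990), Col3a1 at 1.03 (0.964 to 1.10), Col6a1 at 1.05 (0.936 to 1.17) and Col6a2 at 1.19 (1.04 to 1.36) times PBS, beside Col18a1, Col8a1 and Col5a3 given above. The other members lower, Col4a1, Col4a2 and Col4a5, had 9 and 50 UMIs, 12 and 46 UMIs and 4 and 24 UMIs, and Col7a1, the member higher, 28 and 46 UMIs. With 38 treated cells 1 cell could weigh heavily: 1 held 1769 of the class's 10351 treated collagen UMIs (17.1%), with 560 of 2425 of Col1a1 and 347 of 1309 of Col3a1. Without the highest cell of each library the log2 ratios were -0.57 for Col1a1 (from -0.35), -0.28 for Col3a1 (from 0.04) and -0.63 for Col5a2 (from -0.43). An S100a8 or S100a9 UMI was present in 37 of the 38 treated and 55 of the 106 PBS cells, so leaving such cells out keeps 1 treated cell.

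In general capillary endothelial cells 7 of 17 members were lower and 1 higher, beside 11.1% and 11.8% of all genes, with a median of -0.55 beside -0.07. The main endothelial collagen Col4a1 was at 463 and 865 CPM, 0.535 (0.504 to 0.568) times PBS, and Col4a2 at 0.645 (0.599 to 0.694). Thinned to 1000 UMIs, 31.9% and 45.6% of cells had a Col4a1 UMI, against 47.8% and 60.8% at full depth and, thinned, 1.28% and 1.17% of immune cells. Col15a1 (23 and 84 UMIs, ratio 0.304, 0.183 to 0.487) and Col18a1 (10 and 62 UMIs, ratio 0.179, 0.0818 to 0.352) were lower too; 20 of the 84 PBS UMIs of Col15a1 were in 1 cell. Col1a2, Col3a1 and Col8a1 were at 0.602, 0.634 and 0.574 times PBS with at most 83 UMIs in a library, and Col23a1, the member higher, had 28 and 17 UMIs, 17 of 28 of the treated ones in 1 cell. In Car4 capillary cells 3 of 7 members were lower and 1 higher, beside 9.07% and 13.1%, with a median of -0.17 beside -0.03. Col4a1 was at 0.665 (0.611 to 0.723) there and Col4a2 at 0.886 (0.797 to 0.985). Col18a1 (21 and 49 UMIs) and Col1a1 (15 and 34 UMIs) were the others lower, and Col3a1 (24 and 16 UMIs) the member higher, 18 of 24 of its treated UMIs lying in 1 cell. Beside these values the neutrophil marker sum was 1439 and 203 CPM in general and 1440.5 and 116 CPM in Car4 capillary cells, and Scgb1a1, a secreted product of airway cells, 7325 and 3075 CPM and 7384 and 828 CPM. Without cells with an S100a8 or S100a9 UMI (1316 treated and 347 PBS general capillary cells) the log2 ratio of Col4a1 was -1.06 in general capillary cells, from -0.90. Over thinned cells Col4a1 was at -0.71 there, and Col4a2, at -0.39, was lower by less than 1.5-fold.

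Pericytes, the class with the highest Col4a1, had 2 of 9 members lower and 1 higher, beside 12.5% and 25.9% of all genes, with a median of 0.12 beside 0.12. Col4a1 was at 0.915 (0.745 to 1.12), Col4a2 at 1.15 (0.911 to 1.44) and Col8a1 at 1.13 (0.739 to 1.72) times PBS, with intervals that hold 1. Col3a1 (7 and 37 UMIs, ratio 0.218, 0.0821 to 0.496) and Col1a2 (20 and 38 UMIs, ratio 0.607, 0.335 to 1.07) were lower, and Col6a1 (16 and 9 UMIs, ratio 2.05, 0.853 to 5.26) higher. In the PBS pericytes Scgb1a1 was at 63964 CPM, against 2825 CPM in the treated ones. Mesothelial cells, which cover the lung surface, were the only one of the 9 classes with more members higher than lower: 5 higher and 2 lower of 17, beside 17.6% and 11.3% of all genes, with a median of -0.06 beside 0.07. Col4a1 was at 2.06 (1.54 to 2.77), Col5a2 at 1.77 (1.36 to 2.33) and Col4a2 at 1.63 (1.15 to 2.34) times PBS, and Col12a1 had 36 and 6 UMIs, 4.48 (1.87 to 13.0). Col27a1 had 17 and 5 UMIs. Col14a1 (ratio 0.609, 0.470 to 0.789) and Col4a6 (9 and 13 UMIs) were lower, and Col3a1 was at 0.787 (0.693 to 0.894). In this class 1 treated cell of 34629 UMIs held 514 of 2545 collagen UMIs (20.2%), 61 of 179 of Col4a1 and 61 of 190 of Col5a2 among them. Without the highest cell of each library Col4a1 was at a log2 ratio of 0.61, from 1.04, Col5a2 at 0.58, from 0.83, and Col4a2 at 0.39, from 0.70, no longer 1.5-fold higher. With each cell weighted equally Col4a1 was at 0.24 and Col4a2 at 0.15. Without the 48 treated and 12 PBS mesothelial cells with an S100a8 or S100a9 UMI, which leaves 11 and 48 cells, Col4a1 was at -1.63, Col4a2 at -2.59 and Col5a2 at -0.94, so their direction turned.

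In alveolar type 1 cells, the thin gas-exchange epithelium, 1 of 8 members was lower and 0 higher by 1.5-fold, beside 11.3% and 20% of all genes, with a median of -0.36 beside 0.04; the member lower was Col4a6 (11 and 10 UMIs). By smaller amounts, Col4a3, Col4a4 and Col4a5 (ratio 0.671, 0.535 to 0.845) were below PBS, Col4a2 was above it at 1.29 (1.10 to 1.51) and Col4a1 was at 1.05 (0.908 to 1.23). Over thinned cells Col4a2 was at a log2 ratio of -0.08 and Col4a1 at -0.10, no longer above PBS. Per-cell detection of Col4a3 after thinning was 70.7% and 73.0%. In alveolar type 2 cells, the surfactant-making epithelium, 1 of 10 members was lower and 1 higher, beside 11.4% and 11.6%, with a median of -0.05 beside -0.02. Col23a1 was at 103 and 46.0 CPM, 2.23 (1.72 to 2.90) times PBS, and in 13.7% and 4.35% of cells after thinning, beside 0.172% and 0.174% of immune cells. Col4a1 was at 0.548 (0.458 to 0.655), while Col6a1 (1.11), Col4a4 (1.00) and Col12a1 (1.07) had intervals that hold 1. The neutrophil marker sum was 1900.0 and 80.0 CPM in type 1 and 1758 and 339.8 CPM in type 2 cells. Without cells with an S100a8 or S100a9 UMI the log2 ratio of Col4a3 in type 1 cells was -0.38, from -0.42, with 197 treated and 15 PBS cells left out, and that of Col23a1 in type 2 cells 1.41, from 1.16. Col4a1 in type 2 cells was then at -0.35, from -0.87, no longer 1.5-fold lower. Smooth muscle cells had 39 and 41 cells, under the class minimum; their Col3a1 was at 202 and 1928 CPM from 14 and 136 UMIs, a value with no comparison. Col4a1 had 20 UMIs in all 9 classes and was at least 1.5-fold lower in 5, all but pericytes, adventitial fibroblasts, alveolar type 1 cells and mesothelial cells.

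**Figure D3:**
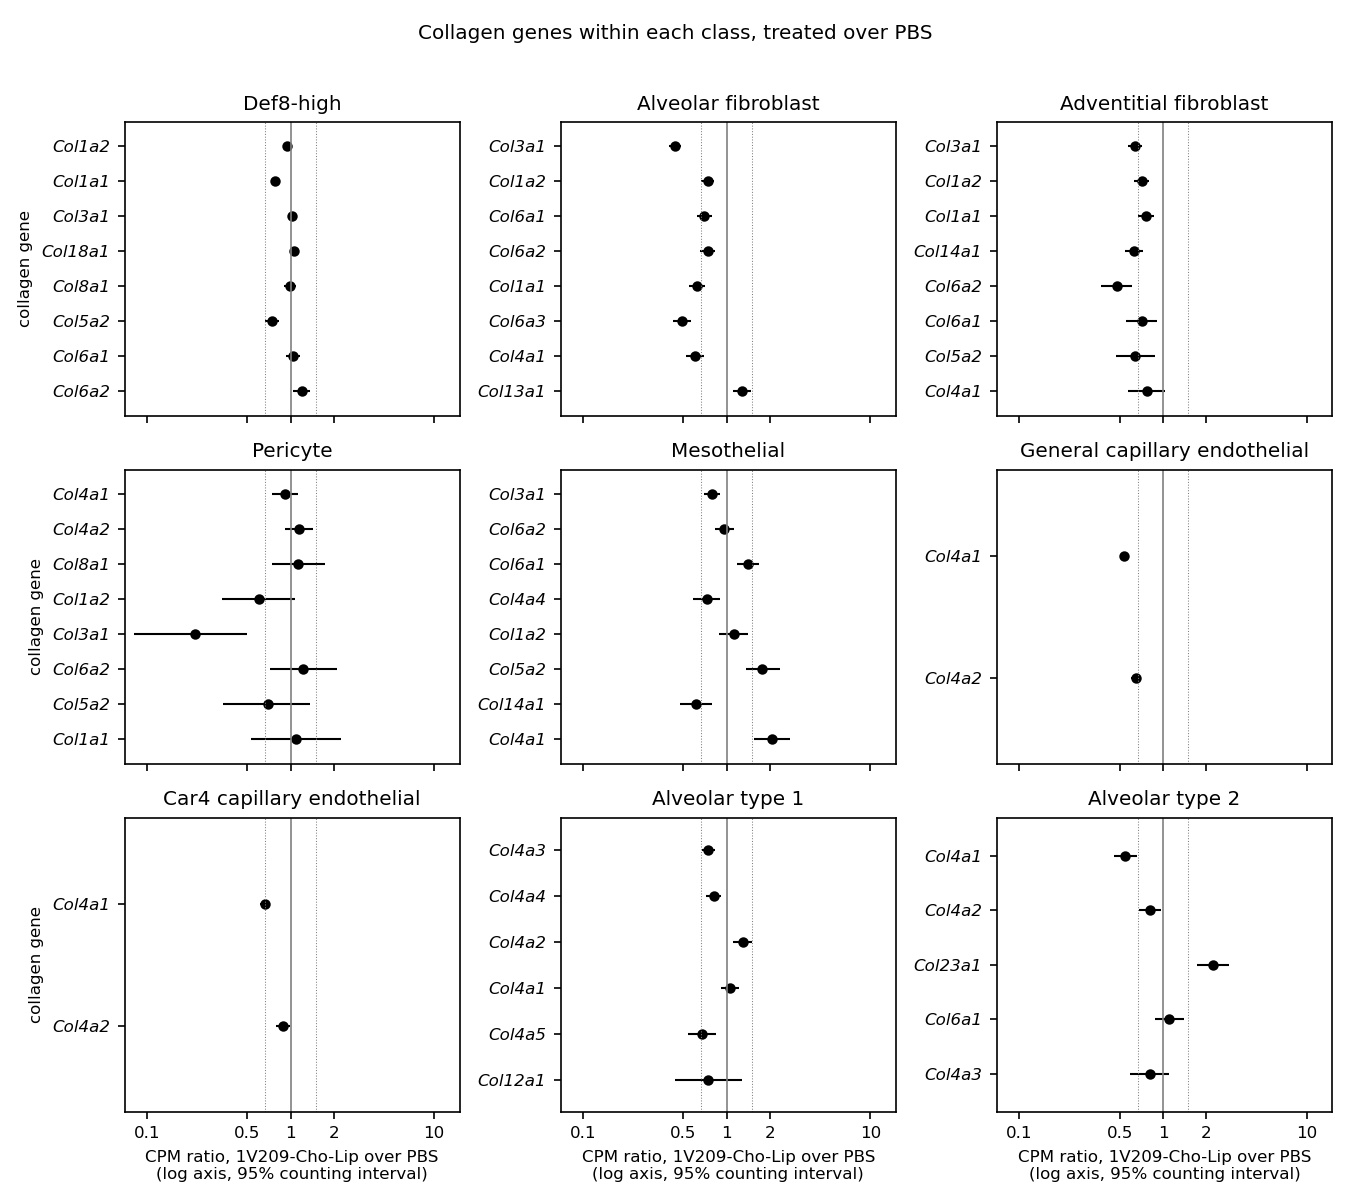
Ratio of treated to PBS level (horizontal log axis) within each of 9 classes (panels), for up to 8 members at or above 50 CPM in the class, as points with 95% counting intervals; the vertical line marks equal levels. Most points of the fibroblast and capillary panels lie left of the line, Col18a1 and Col8a1 of the Def8-high panel lie next to it, and Col4a1 and Col5a2 of the mesothelial panel lie to its right.

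Chains of 1 molecule can be set against each other as a ratio of UMIs, which does not depend on the scaling of a library but does on how well each transcript is captured, so that the libraries are compared and not the genes. Col4a1 over Col4a2, made from neighbouring start sites, was 1.42 (1.32 to 1.54) and 1.72 (1.62 to 1.81) in general capillary cells, 1.40 (1.27 to 1.56) and 1.87 (1.71 to 2.04) in Car4 capillary cells and 0.922 (0.829 to 1.02) and 1.13 (0.933 to 1.36) in alveolar type 1 cells. In both capillary classes and over the whole library, at 1.28 (1.22 to 1.33) and 1.65 (1.59 to 1.71), the intervals of the 2 libraries were apart, with less Col4a1 per Col4a2 in the treated library. Col4a3 over Col4a4 was 1.14 (1.04 to 1.25) and 1.24 (1.08 to 1.41) in alveolar type 1 cells, with overlapping intervals, and 0.333 (0.243 to 0.452) and 0.352 (0.259 to 0.473) in mesothelial cells, so the balance of these partners differed more between classes than between libraries. Col1a1 over Col1a2 was 0.778 (0.738 to 0.821) and 0.945 (0.916 to 0.975) in Def8-high cells, apart between libraries. Col6a1 over Col6a2 was 3.67 (2.61 to 5.28) and 2.92 (2.10 to 4.11) in alveolar type 2 cells, with overlapping intervals.

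Genes that make, bind and cut collagen were counted over the whole library from lists that share no gene with the members. Of 33 genes for chain processing and modification, 7 were at least 1.5-fold higher (P3h1, P3h4, Crtap, Fkbp14, Pcolce2, Adamts3, Loxl1) and 6 lower (P3h2, Serpinh1, Pcolce, Adamts14, Loxl3, Loxl4), beside the 14.0% and 20.2% of all genes given above, with a median log2 ratio of -0.17. Serpinh1, the collagen chaperone HSP47, was at 99.8 and 235 CPM, 0.426 times PBS (0.411 to 0.441). It was at 702 and 1000.3 CPM in Def8-high cells, 343 and 627 CPM in alveolar fibroblasts and 140.3 and 259 CPM in general capillary cells, lower in the treated library in each. Crtap, part of the prolyl 3-hydroxylation complex, had the highest ratio at 39.4 and 9.34 CPM, 4.22 times PBS (3.80 to 4.70). It was higher in all 9 classes, from 2.19 (1.13 to 4.47) times PBS in alveolar type 2 cells to 9.62 (7.92 to 11.8) in Def8-high cells and 11.5 (1.64 to 500.4), from 10 and 1 UMIs, in pericytes. The part of library preparation in this was not tested. The others named by abundance were Ppib, a folding enzyme of that complex (302 and 398 CPM, ratio 0.759, 0.742 to 0.775), P4hb, a subunit of prolyl 4-hydroxylase (268 and 359 CPM, ratio 0.747, 0.730 to 0.765), and Mia3, which loads collagen for export (87.3 and 100.1 CPM, ratio 0.871, 0.835 to 0.909). Loxl4, a crosslinking oxidase, had the lowest ratio at 4.06 and 15.5 CPM, 0.262 times PBS (0.222 to 0.308).

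Of 13 receptor and uptake genes 1 was higher, Ddr1, and 6 were lower (Itga1, Itga2, Itga10, Ddr2, Gp6, Lair1), with a median of -0.27. Over all genes 14.0% were higher and 20.2% lower, with a median of -0.20. The integrin subunit Itgb1 was at 246 and 192 CPM, 1.28 times PBS (1.24 to 1.31), and its collagen-binding partner Itga1 at 58.9 and 105 CPM, 0.560 times PBS (0.535 to 0.587). Ddr2, a receptor kinase for fibrillar collagen, was at 19.8 and 32.5 CPM, 0.608 times PBS (0.560 to 0.661), and the epithelial receptor kinase Ddr1 at 7.35 and 4.07 CPM, 1.81 times PBS (1.51 to 2.17). Def8-high cells held 33.0% and 57.4% of the Ddr2 UMIs, and without these cells Ddr2 was at 0.870 times PBS, no longer lower. Of the 13 genes 1 was then higher and 5 lower, beside 13.1% and 18.0% of all genes, with a median of -0.09. The inhibitory leukocyte receptor Lair1 was at 18.8 and 29.3 CPM, 0.639 times PBS (0.586 to 0.697), and Itga10 had the lowest ratio at 0.130 and 0.387 CPM, 0.336 times PBS (0.109 to 0.884). Of 7 measured degradation genes (of 8 listed) Mmp8, Mmp9 and Ctsk were higher and Mmp13 lower, beside the same shares of all genes, with a median of 0.28 beside -0.20. Mmp8, the neutrophil collagenase, was at 143 and 18.2 CPM, 7.88 times PBS (7.33 to 8.47), and Mmp9, a gelatinase of neutrophils, at 179 and 44.0 CPM, 4.07 times PBS (3.88 to 4.27), beside neutrophil shares of 42.4% (41.6 to 43.3%) and 13.8% (13.2 to 14.5%) of cells. Ctsk, the collagen-cutting cathepsin K, was at 58 and 36.6 CPM, 1.58 times PBS (1.49 to 1.68), the gelatinase Mmp2 at 21 and 21 CPM, 0.997 times PBS (0.911 to 1.09), and the collagenase Mmp13 at 1.06 and 3.23 CPM, 0.329 times PBS (0.233 to 0.457). Without Def8-high cells Ctsk was at 1.44, no longer 1.5-fold higher, and Mmp8, Mmp9 and Mmp13 were at 7.14, 3.88 and 0.369 times PBS.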

How the data were processed

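The study deposited filtered matrices of UMI counts for 1 library of each group, made with Cell Ranger 9.0.1 per the file headers and on mm10 per the submitters' processing notes. These deposited counts are not normalized. The annotation release and chemistry are not given in the sources used here. Cells were kept from 500 UMIs and 200 genes upward, with mitochondrial UMIs up to 20% (20 treated and 62 PBS failed); Scrublet in Scanpy 1.11.5, at an expected 0.8% doublets for every 1000 barcodes, took out 1455 (10.6%) and 1906 (13.0%). The members and lists were chosen with earlier results of these data known.

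Cells with at least 100 Def8 UMIs formed the Def8-high class, and those with 10 to 99 (18 treated and 70 PBS) were kept out of every class. Other cells joined the class with the highest fraction of its markers detected, given at least 3 and no tie. For structural classes that fraction also had to exceed the fraction detected of a separate list of general immune markers. In all 736 and 1521 cells stayed unassigned. Counts were summed over the cells of a class and scaled to CPM, with exact Poisson intervals for levels, exact conditional binomial intervals for ratios and Clopper-Pearson intervals for shares, all at 95%. Where 1 of the counts was 0, 0.5 counts were added for the log2 ratio. With 1 library a group no test was run. Differences are counted at 1.5-fold over genes with 20 UMIs. They cover Def8-high cells and classes of 50 or more cells per library, except club or secretory airway cells (72 treated and 92 PBS).

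Named by rule were all members with 200 UMIs and, in a class, up to 8 members at 50 CPM or more, highest first; of the lists, the 4 most abundant genes and the extremes of the ratio. Members called within a class that fall outside this rule were named after their values were seen. Thinning drew 1000 UMIs from each cell and left out 952 treated and 1357 PBS shallower cells. The ratio code was tested on simulated data. Positions are from GENCODE vM21, which matched 52081 of 55357 identifiers and all 39 members, and promoter sequences from RefSeq GRCm38.p6, which held 33 members. Software was Python 3.11.15 with pandas 2.3.3, scipy 1.17.1, matplotlib 3.10.9 and numpy 2.4.6. Alternatives changed scaling, filters, folds, doublet removal, gates, depth and the cells kept.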

Additional observations from a re-analysis of the deposited data

Results flagged for a closer look

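Col4a1 was higher in the treated library in mesothelial cells, at 2.06 (1.54 to 2.77) times PBS, and lower in 5 other classes with intervals below 1: 0.459 (0.199 to 0.943) in Def8-high cells, 0.598 (0.519 to 0.690) in alveolar fibroblasts, 0.535 (0.504 to 0.568) in general capillary cells, 0.665 (0.611 to 0.723) in Car4 capillary cells and 0.548 (0.458 to 0.655) in alveolar type 2 cells. Col4a2 was at 1.63 (1.15 to 2.34) in mesothelial and 0.645 (0.599 to 0.694) in general capillary cells, and Col5a2 at 1.77 (1.36 to 2.33) in mesothelial cells and 0.643 (0.469 to 0.878) in adventitial fibroblasts. These genes stand out because 1 contrast gave opposite directions in different classes; the difference was not tested, since each group is 1 library. In mesothelial cells 1 treated cell held 20.2% of the collagen UMIs, and leaving out cells with an S100a8 or S100a9 UMI turned all of these mesothelial ratios below PBS, with 11 treated cells left.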

How the results depend on the processing

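With 1 library of pooled lungs a group, counting intervals understate the error of every ratio, and classes of under 100 cells can turn on single cells. No paired analysis was possible because each group was 1 library. Of 982 values of single members under the alternatives 828 moved little and 147 moved more. The sign differed from the reported one in 66 of the 982, and 7 of these were 1.5-fold or more as reported. The median log2 ratio of members over the whole library, -0.31, was -0.15 with median-of-ratios scaling, which raises every value there by the 0.16 that the typical gene is below 0, and -0.16 with cells weighted equally (CPM averaged over cells), and -0.21 both with called doublets kept and over all deposited barcodes. The 13 members lower became 8 with cells weighted equally and 8 without Def8-high cells; a 2-fold cut gave 5 lower and 1 higher. Of gene and class pairs, 35 lower and 12 higher became 19 and 4 at a minimum of 100 UMIs, 97 and 65 at a minimum of 1 UMI (median -0.23 from -0.34) and 15 and 7 at 2-fold, fewer or more pairs being counted by construction. Shares over all genes at these other folds and minimums are not given here, so such counts describe the members alone. Over cells thinned to 1000 UMIs 1 pair was higher and the median was -0.46. List medians with median-of-ratios scaling were -0.01 for chain processing, -0.10 for receptors and 0.45 for degradation, and -0.09 for receptors without Def8-high cells. The changed signs of such 1.5-fold differences, in log2, were Col16a1 over the library at 0.07 with cells weighted equally, Col16a1 at 0.14 and Col5a2 at 0.05 without Def8-high cells, and mesothelial Col12a1 at -0.03 over thinned cells. In an alternative chosen after seeing the data, without cells with an S100a8 or S100a9 UMI, mesothelial Col4a1 was at -1.63, Col4a2 at -2.59 and Col5a2 at -0.94. The other alternatives chosen after seeing the data left out cells with 10 Scgb1a1 UMIs, which reversed no value, or the cell with the most collagen UMIs, which gave 38 pairs lower and 9 higher. The cause of these changes was not tested.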

Other observations

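Outside the structural classes Col6a4, a collagen VI chain, was at 13.0 and 12.3 CPM in B cells against 1.5 and 0.976 CPM in neutrophils and 1.82 and 2.30 CPM in T or NK cells. Col14a1, mainly a fibroblast gene here, was at 24.7 and 8.61 CPM in monocytes or macrophages, beside 10.1 and 6.18 CPM in neutrophils and 5.38 and 1.09 CPM in B cells. Of the airway classes, Col23a1 was at 126 and 64.9 CPM in 39 treated and 26 PBS ciliated cells. Those were 46 and 12 UMIs in 5 cells of each library, with 20 and 8 of them in 1 cell. It was at 44.4 and 58.4 CPM in 72 treated and 92 PBS club or secretory cells, a class not compared between libraries.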
